A study of Mus musculus with 7 samples.

Results

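Joined H3K27-Ac domains, long stretches of chromatin in which many acetylated regions lie close together, were ranked in 3 tumour cell clones, and the 300 highest are described here. Peaks of each clone that lay no more than 12500 bp apart on chromosomes 1 to 19 were joined into domains, overlapping domains of the clones were merged, and the bases under peaks were summed in each merged domain. This gave 21380 merged domains, of which 10633 held peaks of all 3 clones and are called shared domains below. The 300 with the highest mean number of bases over the clones, 2.82% of the shared domains, are the members. They were chosen by these measured values, so their rank and their bases are a description and no test was made on them.

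H3K27-Ac is acetylation of lysine 27 of histone H3, a mark found at active promoters and enhancers. Long clusters of acetylated enhancers are often called super-enhancers, and in many cell types they lie around genes that define the cell, transcription factors above all. A count of bases also reaches gene-rich stretches in which many acetylated promoters stand side by side, so promoters and distal sites were counted separately.

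All clones came from skin tumours of *Cdkn2ab*-/- mice on an FVB/129P2 backcross, which lack the cell cycle inhibitors p15, p16 and p19, and no other genotype or treatment was included. Each clone was picked for growth in soft agar and came from a different tumour, so a clone stands for 1 tumour and 1 selected cell. The tumours were diagnosed in the study as trichoblastic carcinomas, a hair follicle type of skin carcinoma. There were 4 H3K27-Ac libraries, 1 each of clones 1 and 2 and a pooled pair of clone 3. Control libraries with IgG numbered 3, of which 1 belonged to clone 1 and 2 to clone 3. With no IgG library of clone 2 among the samples, and the control behind its peaks not given in the sources used here, fold enrichments are best compared within a clone. Reads of both parental alleles count towards a peak. On chromosomes 1 to 19 the lists held 28641, 48925 and 28798 peaks for clones 1, 2 and 3, covering 26.5, 39.2 and 25.9 Mb. Read totals were not estimated here, so the depth behind the peaks is unknown.

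Clone 2 stood apart from the others, with the longest list. It had the most bases in 257 of the 300 members, clone 1 in 34 and clone 3 in 9. In clone 2, 279 members formed 1 unbroken domain, against 89 in clone 1 and 68 in clone 3, where a member was often made of several separate pieces (a mean of 2.25 and 2.48). Of the members, 236 were among the 300 highest shared domains of clone 1, 246 among those of clone 2, 195 among those of clone 3 and 140 among those of every clone. When the domains of clones 1 and 3 alone were ranked, 176 of the 300 members, 77 of the first 100 and 18 of the first 20 overlapped a domain among the 300 highest. When each clone's bases were instead taken as a share of its own total, 284 of the 300 members were kept. The rank without clone 2, which is that of the highest overlapping domain, is given below for the members described at most length.

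Sequences under the peaks are shown first, for members whose bases do not come mainly from promoters. The stretches below cover distal summits in 4 of the 5 highest members without a protein-coding start inside and in 3 of the 4 highest members whose single gene is a transcription factor. At each, the summits of clones 2 and 3 lay within 150 bp of that of clone 1, and the mean fold enrichment was the highest of the domain for such a site outside annotated exons. Capitals mark the summit base of each clone with its neighbour on either side, and the plus strand of GRCm38 is printed.
Domain 9, upstream of Wnt7b, chr15:85634915-85635139: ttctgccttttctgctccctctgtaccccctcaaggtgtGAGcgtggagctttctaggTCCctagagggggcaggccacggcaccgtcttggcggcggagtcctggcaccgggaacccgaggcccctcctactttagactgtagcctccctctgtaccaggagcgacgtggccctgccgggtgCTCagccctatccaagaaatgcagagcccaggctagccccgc
Domain 18, around Mir21a, chr11:86577830-86578027: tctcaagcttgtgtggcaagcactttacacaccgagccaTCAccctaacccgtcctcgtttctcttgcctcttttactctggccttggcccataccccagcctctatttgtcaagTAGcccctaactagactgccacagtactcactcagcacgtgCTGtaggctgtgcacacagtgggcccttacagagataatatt
Domain 47, around Mir29a, chr6:31075535-31075696: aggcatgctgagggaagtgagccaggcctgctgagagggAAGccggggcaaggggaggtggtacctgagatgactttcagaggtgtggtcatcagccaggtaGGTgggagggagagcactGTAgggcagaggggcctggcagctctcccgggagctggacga
Domain 104, nearest start Ifne, chr4:88950363-88950580: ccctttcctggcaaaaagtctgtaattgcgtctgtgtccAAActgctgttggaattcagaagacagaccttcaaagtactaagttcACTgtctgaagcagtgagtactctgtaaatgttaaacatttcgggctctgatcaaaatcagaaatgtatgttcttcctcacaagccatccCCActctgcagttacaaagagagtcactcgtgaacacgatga
Domain 5, around Cebpb, chr2:167777723-167777840: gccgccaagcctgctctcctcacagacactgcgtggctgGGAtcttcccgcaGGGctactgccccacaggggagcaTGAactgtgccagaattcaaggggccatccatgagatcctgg
Domain 120, intron of Rbpj, chr5:53536332-53536537: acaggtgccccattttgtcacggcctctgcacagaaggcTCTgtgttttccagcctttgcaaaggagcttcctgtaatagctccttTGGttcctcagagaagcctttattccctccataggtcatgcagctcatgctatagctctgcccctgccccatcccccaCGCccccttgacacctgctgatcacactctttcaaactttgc
Domain 131, intron of Zfhx3, chr8:108764382-108764540: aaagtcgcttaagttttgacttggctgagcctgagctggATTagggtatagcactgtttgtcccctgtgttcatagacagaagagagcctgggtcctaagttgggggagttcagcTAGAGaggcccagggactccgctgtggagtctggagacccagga
Fold enrichment, the ChIP signal at a summit over the local background, was 34.8, 67.4 and 9.45 in clones 1, 2 and 3 at the first of these. At the *Cebpb* site it was 38.6, 86.5 and 9.89. In domain 104 and at the *Rbpj* site clone 1 was the highest, with 20.7, 5.87 and 5.36 and with 13.7, 9.45 and 6.61. Clone 3 had the lowest fold enrichment at all 7 sites. It was also lowest over all peaks, with a median of 5.38 against 7.68 in clone 1 and 7.13 in clone 2.

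Members were long and held many peaks. Their length ran from 19.8 to 272 kb with a median of 73.9 kb, against 4.56 kb for the other shared domains. The 300 highest domains without clone 2 had a median length of 34.6 kb. In clones 1, 2 and 3 a median member held 11, 23 and 9 peaks. The median number of bases under them was 12462.5, 21491 and 8610, where the other shared domains held 1499, 1739 and 1503. Peaks covered a median of 16.9%, 29.7% and 11.5% of a member's length. The members held 15.9%, 18.6% and 11.1% of all bases under peaks of clones 1, 2 and 3 (15.2% ± 3.76, SD, n = 3 clones). Single distal peaks had much the same strength as elsewhere, with a median fold enrichment of 6.41, 6.22 and 4.81 in members and 6.25, 6.25 and 4.95 in the other shared domains. Peaks of 3 kb or more made up 6.71%, 4.13% and 4.02% of the members' peaks and 1.98%, 1.38% and 1.33% of those of the other shared domains, higher in members in each clone, a measure close to the bases that the rule used.

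**Figure D1:**
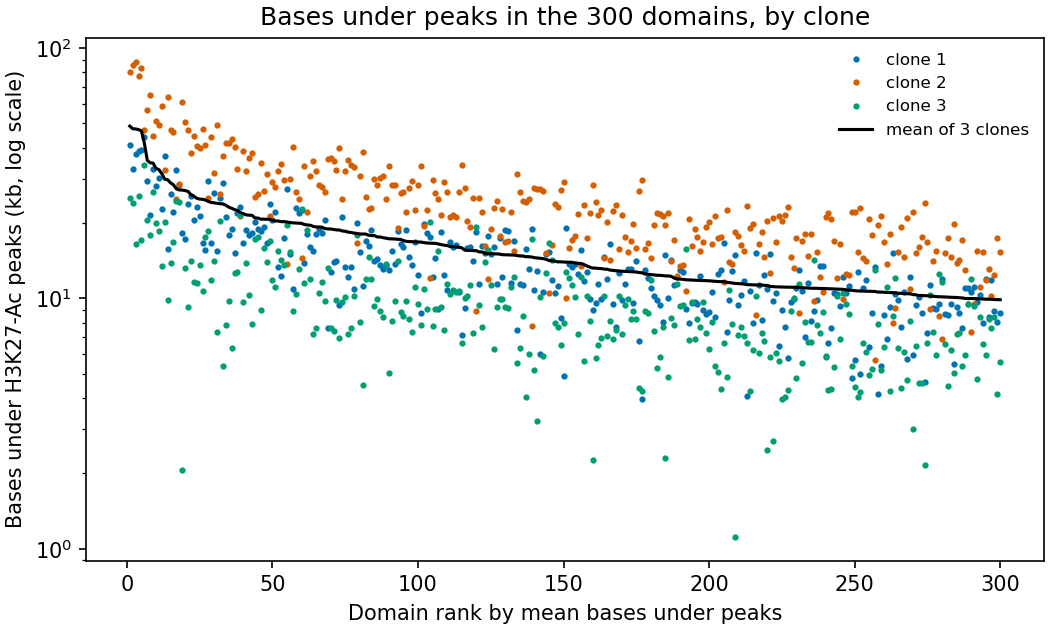
Bases under H3K27-Ac peaks (kb, log scale) in each of the 300 domains against the rank by mean, with 1 point per clone and the mean of the 3 clones as a line. Points of clone 2 lie above the line in most domains, and the clones spread apart along the whole range from a mean of 48803 to 9880 bases.

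The values fell without a step at the threshold. Just inside were domain 298, with a mean of 9897 bases and no start (nearest *Eps8l3*), domain 299 at *Ssbp3* with 9892 and domain 300 with *Mafg* among its 7 genes and 9880. Just outside lay the domains at *Cdk18* with 9874, at *Vamp8* and 5 further genes with 9864, and at *Flnc* and 2 further genes with 9839. Over the 10633 shared domains, which differ in length and gene density, the bases of clones 1 and 2 had a Spearman's rho of 0.731, those of clones 1 and 3 of 0.759 and those of clones 2 and 3 of 0.597. Within the 300 members, where selection narrows the range, rho was 0.350, 0.651 and 0.145.

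The highest domain, on chromosome 8 from 84656071 to 84872642, spanned 217 kb with 12 gene starts and held 40938, 80325 and 25146 bases in clones 1, 2 and 3 (48803 ± 28418, SD). Among the genes it contains are *Nfix*, a nuclear factor I transcription factor, the early response gene *Ier2*, the bHLH factor *Lyl1*, and *Calr*, *Dand5*, *Farsa*, *Gadd45gip1*, *Nacc1*, *Syce2*, *Trmt1* and G430095P16Rik. The promoter of *Nfix* carried a fold enrichment of 42.8, 68.7 and 14.4, whereas that of *Lyl1* had a peak in clone 2 alone, at 5.69. Without clone 2 this domain ranked 12. Domain 2 on the same chromosome, with 17 starts, held *Jund*, an AP-1 subunit, with *Gdf15*, *Crtc1*, *Ell*, *Fkbp8*, *Iqcn*, *Isyna1*, *Klhl26*, *Kxd1*, *Lrrc25*, *Lsm4*, *Pgpep1*, *Rex1bd*, *Ssbp4* and *Tmem59l* among others. Its 32756, 85937 and 24159 bases were split into 8 pieces in clones 1 and 3, and it ranked 179 without clone 2. Domain 3 on chromosome 10 was of the same gene-dense kind, with *Stk11*, *Gpx4*, *Cirbp*, *Midn*, *Efna2*, *Sbno2*, *Polr2e*, *Atp5d*, *Cbarp*, *Arhgap45* and 1600002K03Rik. Of its bases 65.2%, 35.3% and 78.8% were at promoters in clones 1, 2 and 3, a mean over clones of 59.7%.

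Other high members were built around a single gene. Domain 4 at *Zmiz1*, a transcriptional coactivator, held 38765, 77417 and 25593 bases and ranked 3 without clone 2. As a mean over clones, 4.03% of its bases lay at promoters. Domain 5 held 39249, 83571 and 17156 bases over 210 kb with *Cebpb*, a bZIP transcription factor, as its only protein-coding start. The mean over clones of its promoter share was 5.46%. The *Cebpb* promoter had a fold enrichment of 54.8, 77.2 and 19.05, and the domain ranked 14 without clone 2. At *Myh9*, the heavy chain of non-muscle myosin IIA, domain 7 was 1 piece in every clone and held 29529, 56748 and 20587 bases, with a rank of 6 without clone 2. Domain 6 on chromosome 19 varied least in bases among the first 6, with 44324, 46911 and 34060, and ranked 1 without clone 2. It holds *Frmd8* and *Slc25a45* together with the long non-coding RNA genes *Neat1* and *Malat1*, which are highly transcribed in many cell types, and its widest peak measured 17291, 11376 and 12026 bp.

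Among the rest of the first 20, *Socs3* (a feedback inhibitor of cytokine signalling) with *Pgs1* formed domain 10, *Cmip* domain 11, and *Ddit4* (a stress-induced inhibitor of mTORC1) with *Dnajb12* domain 13. Without clone 2 these ranked 7, 94 and 4. Domain 8 held the amino acid transporter *Slc7a5*, *Banp*, *Car5a* and *Klhdc4*, and domain 12 held *Lgals1*, *Lgals2*, *Triobp*, *Cdc42ep1*, *Sh3bp1*, *Pdxp*, *Gga1*, *Nol12* and Gm49510, and they ranked 185 and 229 without clone 2. *Shb* with *Slc25a51* (domain 16), *Irf2bp2* (17), *Sept9* (19) and *Piezo1* with *Snai3*, *Cdt1*, *Aprt*, *Ctu2* and *Rnf166* (20) followed, with the *Hoxb* cluster as domain 15. *Irf2bp2* held 32689, 24999 and 24518 bases, and here clone 1 was the highest, with a rank of 23 without clone 2. *Sept9* held 18184, 61018 and 2065 bases, which ranked 60, 8 and 3500 among the shared domains of clones 1, 2 and 3. It ranked 671 without clone 2.

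**Figure D2:**
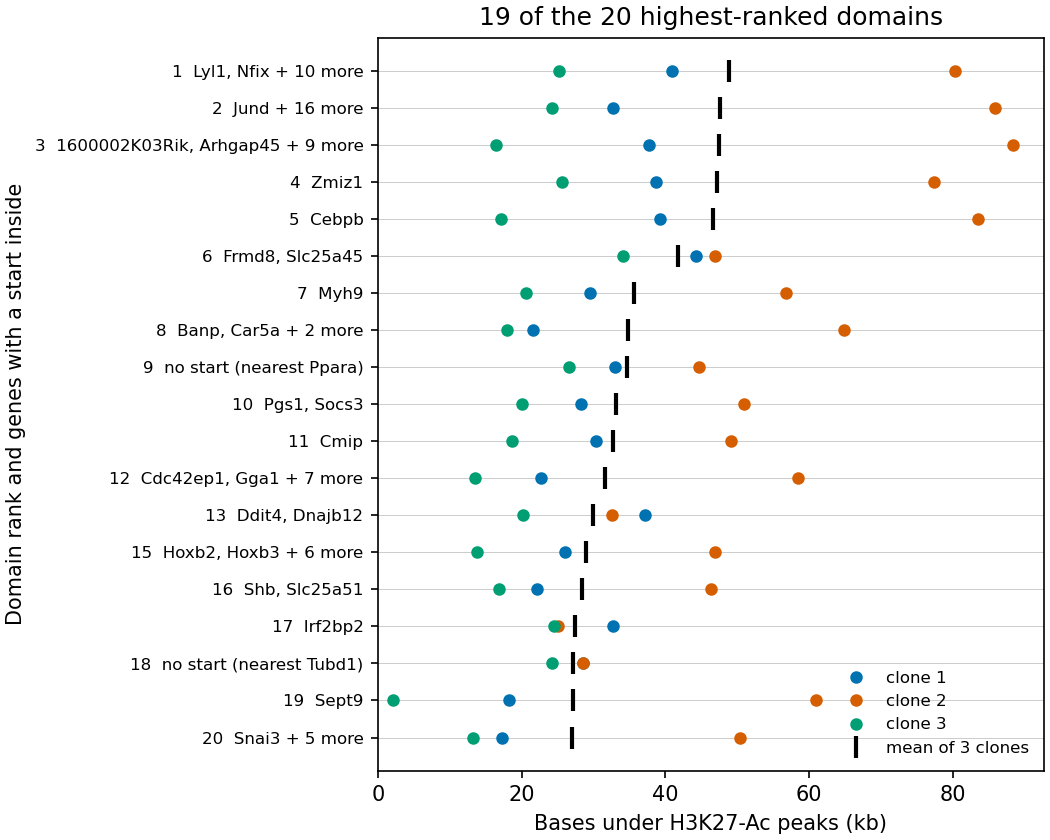
Bases under H3K27-Ac peaks (kb) in 19 of the 20 highest domains, with 1 point per clone and a bar at the mean; in domain 18 the points of clones 1 and 2 coincide. Clone 2 lies far to the right in domains such as that of *Sept9*, while the clones lie close together in the domain nearest *Tubd1*, which holds *Mir21a*.

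The bases of the members lay less at promoters than elsewhere. A promoter was taken as 1 kb either side of a protein-coding start, and the promoter share of bases under peaks was 30.3%, 22.3% and 32.3% in members of clones 1, 2 and 3 (28.3% ± 5.28, SD, n = 3 clones). In the other shared domains it was 53.6%, 47.9% and 50.8% (50.8% ± 2.84), and over all peaks 47.5%, 39.5% and 42.5%. The values of the members were the lowest in each clone. The rule picks long stretches with many peaks, and how far the lower share follows from that choice was not tested. Distal peaks, with no base in a promoter, made up 70.8%, 82.9% and 64.7% of the members' peaks (72.8% ± 9.25) and 53.5%, 66.4% and 50.5% of the peaks in other shared domains (56.8% ± 8.43). The distal share was higher in members within each clone, while the ranges over clones overlapped. A member still held 3.56, 4.49 and 3.31 promoter peaks on average, against 0.973, 0.992 and 0.974 in another shared domain.

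Of the distal summits in members, 60.7%, 62.0% and 59.97% were in introns of protein-coding genes, 33.3%, 21.5% and 34.7% lay between genes, and 6.003%, 16.5% and 5.33% fell in exons. Clone 2 had the most exonic summits in members and also in the other shared domains (4.69%, 13.8% and 4.27%). Promoter content, taken for each member as the mean of the clones' percentages, differed widely. In 25 members less than 5% of the bases were at promoters and in 61 more than 50%. The median was 16.2% over members with 1 gene and 59.2% over the 66 members with 5 or more genes, and 27.8% over all.

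**Figure D3:**
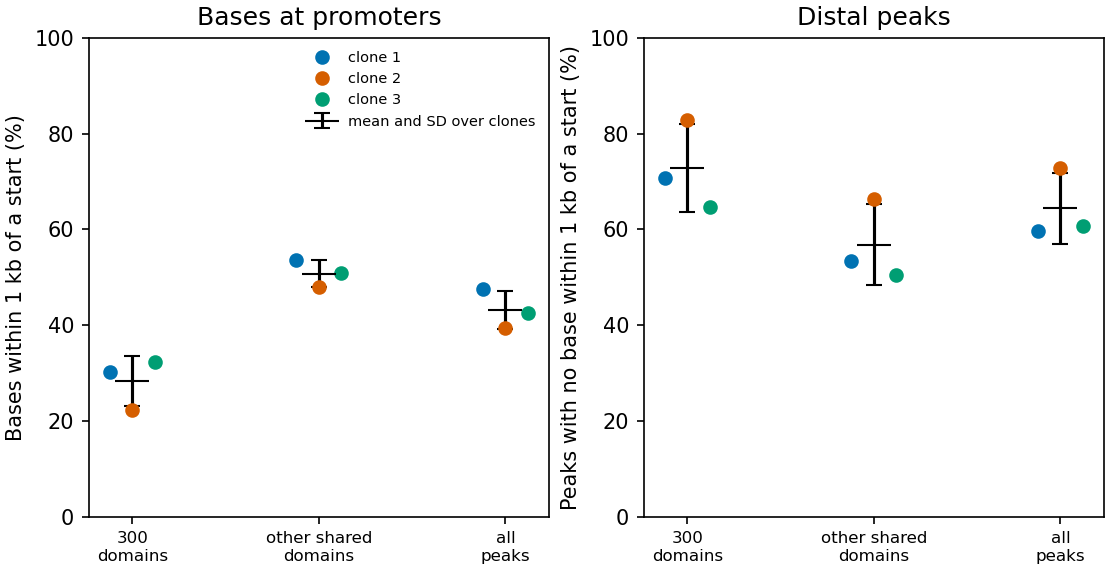
Left, bases under peaks within 1 kb of a protein-coding start (% of bases), and right, peaks with no base in that window (% of peaks), for the 300 domains, the other shared domains and all peaks. Points are clones and the bars give mean and SD over the 3 clones; in each clone the 300 domains have the lowest promoter share (22.3% to 32.3%) and the highest distal share (64.7% to 82.9%).

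A protein-coding start lay inside 281 members, 1 gene in 105, 2 to 4 in 110 and 5 or more in 66. In all, 906 genes had a start inside, or 36.9 genes per Mb, where the shorter other shared domains held 90.8 per Mb. Of the 906 genes, 79 were on a list of 754 transcription factors, or 8.72%, against 3.42% of the genes in other shared domains and 3.64% of all 20698 genes on these chromosomes. Without the *Hox* genes, 21 of which lay in 3 members, the share was 6.55%. Ranking clones 1 and 3 alone gave 61 transcription factors among 479 genes, or 12.7% (9.13% without *Hox*), and 45 of the 79 were in common. In total 55 members (18.3%) held a transcription factor start, against 3.38% of the other shared domains, which are far shorter. Promoter peaks were present in all 3 clones at 60 of the 79 genes, in 2 clones at 11, in 1 clone at 5 and in none at 3 (*Foxh1*, *Foxl1* and *Hoxa6*).

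The AP-1 and Maf families, bZIP factors that pair with each other and respond to growth signals, supplied 9 genes. Of 12 AP-1 genes, 5 lay in members (*Jund*, *Fosl1*, *Junb*, *Fosl2* and *Fos*), and so did 4 of 13 Maf, CNC and Bach genes (*Maff*, *Nfe2l1*, *Mafk* and *Mafg*). *Fosl2* was the only gene of domain 237, which held 9853, 15259 and 7815 bases in 1 piece per clone, with a promoter fold enrichment of 54.7, 84.3 and 14.7, and it ranked 157 without clone 2. *Fos* in domain 289 was nearly equal in the clones, with 10961, 9540 and 9473 bases, and ranked 105 without clone 2. *Maff* lay in domain 37 (15150, 40110 and 12620 bases), and *Mafg* in the last member, and these ranked 205 and 668 without clone 2. In domain 175, next to the *Nfix* domain, *Junb* held 14095, 15846 and 8310 bases with 4 other genes and ranked 76.

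Nuclear receptors, which act on binding lipophilic hormones and metabolites, supplied 8 of 47 genes. *Ppard*, the fatty acid receptor, shared domain 29 with *Tead3*, a partner of the YAP coactivators, and that domain held 16651, 44082 and 11804 bases and ranked 242 without clone 2. *Nr1d1* and *Thra*, the circadian repressor and the thyroid hormone receptor, lay together in domain 58 with 23077, 26523 and 10439, which ranked 25. The retinoic acid receptors *Rarg* and *Rara* (domains 108 and 141), *Esrra* (97), the vitamin D receptor *Vdr* (217) and *Nr4a1* (295) were the others. *Vdr* was the single gene of its domain, with 11295, 16566 and 6073 bases and a rank of 236.

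Of the remaining families, nuclear factor I had 2 of 4 genes in members, *Nfix* and *Nfic*, and TEAD also 2 of 4, *Tead3* and *Tead4*. C/EBP and PAR factors had 4 of 11 (*Cebpb*, *Tef*, *Dbp* and *Nfil3*), SMAD factors of TGF-beta signalling 2 of 8 (*Smad7* and *Smad3*), forkhead factors 4 of 41 (*Foxk1*, *Foxh1*, *Foxc2* and *Foxl1*) and RUNX factors 1 of 3 (*Runx3*). *Smad7* was alone in domain 102 with 19822, 19391 and 10923 bases and ranked 37 without clone 2. *Rbpj*, the DNA-binding partner of Notch, was alone in domain 120 with 18463, 8868 and 19225, the reverse of the usual order, and ranked 19 without clone 2. *Runx3* in domain 220 held 10861, 20463 and 2481 and ranked 1123 without clone 2. No gene of the ETS (24 genes), NF-kB and NFAT (10), GATA (6), SOX and TCF/LEF (25), AP-2 and Grainyhead (11) or p53 (3) families had a start in a member. Over all genes 4.38% had one, so absence from families of this size says little. In the same order, 15, 10, 4, 11, 3 and 1 of their genes had a start in another shared domain.

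Other factors in the 60 highest members were *Snai1* (domain 21), *Klf16* (23), *Prrx2* (34), *Stat6* (36), *Hes7* (50), *Atf5* (54) and *Srebf1* (57), while *Nfic* lay in domain 31 and *Foxk1* in domain 40. The EMT factor *Snai1* lay in a domain of 23943, 47150 and 9240 bases, and its own promoter had a peak in clones 1 and 2 (5.84 and 11.04) and none in clone 3. *Prrx2*, a homeobox factor of mesenchyme, had promoter values of 25.6, 41.8 and 5.46 in a domain of 21097, 41734 and 7855 bases. For *Stat6* these were 27.6, 60.01 and 5.06, and 19024, 43358 and 6365 bases. Without clone 2 the domains of *Snai1*, *Prrx2* and *Stat6* ranked 53, 328 and 102. *Klf16*, *Nfic*, *Atf5* and *Srebf1* ranked between 593 and 937 without clone 2.

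*Hox* genes, which set position along the body axis, came as clusters. Domain 15 held *Hoxb2* to *Hoxb9* with 26092, 46920 and 13818 bases, and *Hoxb9* had the highest promoter values of the cluster in each clone (14.8, 43.0 and 13.3). Domain 82 held *Hoxc4*, *Hoxc5*, *Hoxc6*, *Hoxc8*, *Hoxc9* and *Hoxc10* with 16972, 25315 and 11953 bases. *Hoxc5* was highest there at 14.5, 57.8 and 6.66, while *Hoxc9* and *Hoxc10* had a promoter peak in clone 2 alone. Domain 251, with *Hoxa2* to *Hoxa7* among its 9 genes, held 12709, 15395 and 4038 bases, and the promoter of *Hoxa5* stood at 19.8, 48.6 and 7.03. Without clone 2 these domains ranked 16, 36 and 191.

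**Figure D4:**
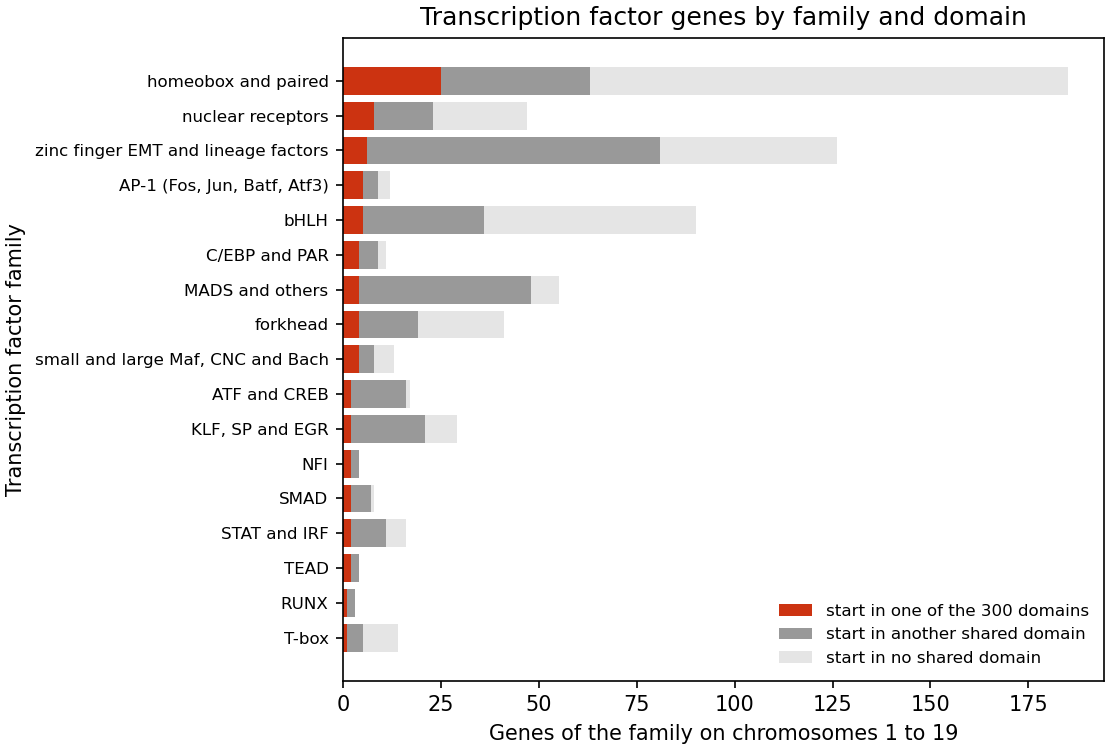
Number of transcription factor genes on chromosomes 1 to 19 by family, split by whether a start lies in one of the 300 domains, in another shared domain or in none. Homeobox genes give the largest number in the 300 domains (25, of which 21 are *Hox* genes). AP-1 has 5 of 12 inside, nuclear factor I 2 of 4 and TEAD 2 of 4, beside 79 of all 754 listed factors. A share of so few genes is imprecise, and the *Nfic* domain ranked 713 without clone 2.

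The 19 members without a protein-coding start (6.33%, against 28.3% of the other shared domains) were purely distal. Their number changed with the processing, to 64 of the 300 highest domains without clone 2, 54 with joining over 5 kb and 34 with the same number of peaks per clone. They lay 4.76 to 97.2 kb from the nearest such start, with a median of 40.2 kb, and 11 held the start of a long non-coding RNA gene. Without clone 2, 16 of the 19 overlapped one of the 300 highest domains, against 31 of the 66 members with 5 or more genes. Domain 9 on chromosome 15, from 85634324 to 85709988, held 33008, 44640 and 26534 bases, was 1 piece in every clone and ranked 2 without clone 2. It starts 51.9 kb upstream of *Wnt7b*, a Wnt ligand of skin and lung, and lies 25.6 kb from *Ppara*. Domain 18 on chromosome 11 was the most even of the first 20 in bases, with 28507, 28594 and 24269 (27123 ± 2472, SD). It overlaps *Vmp1* and *Tubd1* and ranked 5 without clone 2.

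In domain 47 on chromosome 6, 97.2 kb from *Klf14*, there were 19319, 26926 and 15952 bases, and *Lncpint* starts inside. Domain 104 on chromosome 4, nearest to *Ifne*, was one of the few in which clone 3 was highest, with 17661, 12094 and 20122. Domain 197 lay within *Runx1*, a factor of hair follicle stem cells whose own starts are in no member, and held 12273, 15438 and 7680 bases. Domain 203 held the long non-coding RNA genes *Carmn* and *Bvht*. Domains 93 (near *Lrrc74a*), 128, 156, 187 (near *Zfp36l2*), 216 (in *Ahnak*), 239 (near *Chd2*), 244 (in *Arhgap10*), 248 (near *Tomm20*), 257 (in *Cubn*), 264 (in *Tprg*), 268 (near *Errfi1*), 269 (near *Med13l*) and 298 were the rest.

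MicroRNA hairpins lay in 53 members (17.7%, against 1.85% of the other shared domains, which are shorter), 70 of the 919 annotated on these chromosomes. Of the 300 highest domains without clone 2, which are shorter than the members, 18 held one. Mature sequences from RefSeq (GRCm38.p6) are shown for those in members without a protein-coding start that are named above and for the paralogous *Mir23*, *Mir27* and *Mir24* clusters, with the seed, bases 2 to 8, in capitals. MicroRNAs that share a seed recognise largely the same targets.
mmu-let-7b-5p: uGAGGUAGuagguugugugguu
mmu-let-7c-5p: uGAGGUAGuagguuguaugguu
mmu-miR-21a-5p: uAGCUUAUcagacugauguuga
mmu-miR-29a-3p: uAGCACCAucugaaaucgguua
mmu-miR-29b-3p: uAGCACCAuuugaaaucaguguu
mmu-miR-27a-3p: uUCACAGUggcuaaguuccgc
mmu-miR-27b-3p: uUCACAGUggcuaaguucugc
mmu-miR-23a-3p: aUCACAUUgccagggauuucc
mmu-miR-24-3p: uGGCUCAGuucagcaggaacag
*Mirlet7b* and *Mirlet7c-2*, which share the seed GAGGUAG, lay at the far end of domain 9, and only clone 2 had a peak within 1 kb of them, at 10.8. *Mir21a* was at the strongest peak of domain 18 in every clone, with a fold enrichment of 30.8, 48.6 and 14.8. *Mir29a* and *Mir29b-1* share AGCACCA in domain 47, where peaks within 1 kb of *Mir29a* were listed in clones 1 and 3 at 5.58 and 5.13. The seed UCACAGU was present in 2 members, as *Mir27b* in domain 39 with *Mir23b* and *Mir24-1* and as *Mir27a* in domain 45 with *Mir23a* and *Mir24-2*. Domain 39 held 23160, 21365 and 21545 bases and domain 45 held 18968, 26222 and 17659, so the clones were close in each. The *Hox* members contained *Mir10a* and *Mir196a-1* (domain 15) and *Mir196a-2* (82), and domain 146 contained *Mir195a* and *Mir497*.

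Distal summits of members were compared with all other distal peaks by short motifs, searched on both strands in the 200 bp around the summit. The KLF and SP box CCACCC was present at 25.1%, 29.4% and 22.6% of distal summits in members and at 18.7%, 25.6% and 15.01% of the others, higher in each clone. The AP-1 site TGANTCA was less frequent in members, at 5.07%, 5.55% and 5.16% against 5.92%, 7.32% and 7.17%, and so was the GATA site AGATAA, at 7.05%, 4.17% and 7.03% against 9.18%, 5.20% and 10.9%. The C/EBP site TTGCNNAA (5.62%, 4.73% and 5.99% against 7.08%, 5.41% and 7.76%) and the RUNX site TGTGGTT (3.56%, 3.60% and 3.40% against 4.50%, 4.02% and 4.99%) were also lower in each clone. The TEAD site GGAATGT was at 3.18%, 2.56% and 3.02% against 2.95%, 2.87% and 3.23%, with no common direction. NFI (TTGGCA), SOX (ACAATG), ETS (ACTTCC) and TCF/LEF (ATCAAAG) letters were lower in members in each clone, and the CTCF core letters CCCTC were higher. Base composition also differed: the median GC content of distal summits was 53%, 57.5% and 52% in members and 50%, 56% and 48.5% in other shared domains. The latter are only a part of the other distal peaks used for the motifs. For AP-1 the windows were also split into 4 classes of GC content, as a description. Its share was lower in members in every class of each clone. At 50% to 55% GC it was 4.98%, 6.79% and 4.89% against 5.23%, 8.82% and 6.86%. The classes were uneven in size, from 71 member windows of clone 2 below 45% GC to 4736 of clone 2 at 55% or more. The part of GC content was not tested for any motif.

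The members were spread unevenly over the chromosomes. Chromosome 15 carried 27 of them, 5.602 per 100 shared domains, and chromosome 19 carried 18, or 5.77, where the mean over all chromosomes was 2.82. Chromosome 11 had 35 and chromosome 8 had 26, while chromosomes 1 and 13 had 4 each, 0.593 and 0.759 per 100 shared domains. Without clone 2 the numbers were 22 on chromosome 15, 17 on 19, 24 on 11, 31 on 8 and 8 on each of chromosomes 1 and 13. Chromosome 15 holds 3.77% of the genes and 5.86%, 6.16% and 5.92% of all bases under peaks in clones 1, 2 and 3. The cell lines carry extra copies of the FVB/N chromosome 15, as the study describes. For the skin tumours the study also reports modest gains or small amplified stretches of further chromosomes, and frequent losses of others. Chromosomes 8 and 11 are among the gained ones. Whether the clones carry these further changes was not examined here. The part of copy number and of gene density in these counts was not tested for any chromosome. Among the 27 on chromosome 15 were *Plec* (domain 38), *Mtss1* (52), *Trio* (69), *Gramd4* (73), *Hdac7* (76), *Ago2* (127) and *Mrtfa* (258), named after their values were seen.

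**Figure D5:**
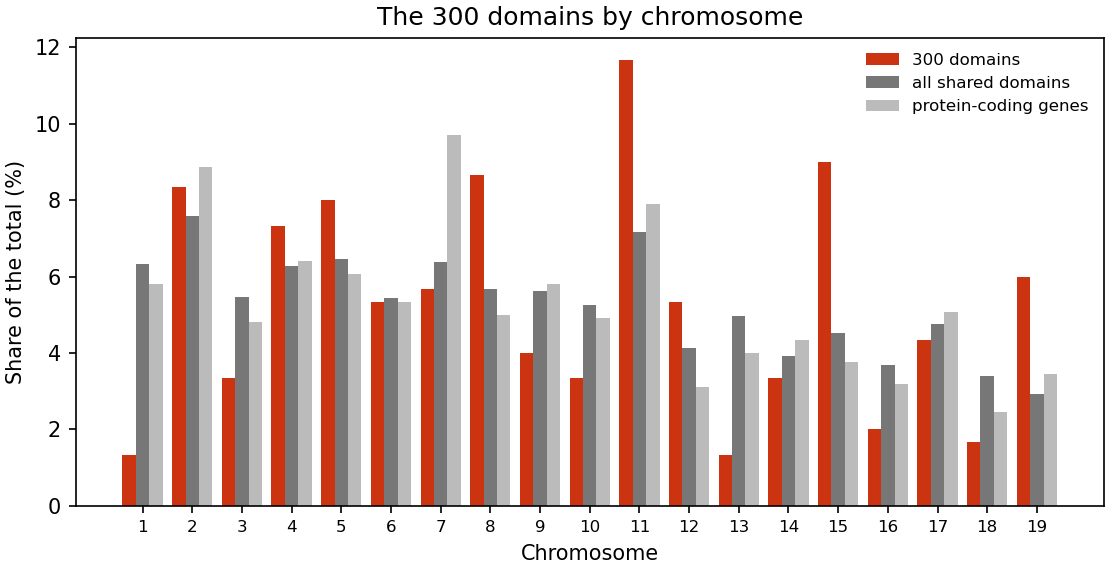
Share (%) of the 300 domains, of all shared domains and of protein-coding genes on each chromosome from 1 to 19. On chromosome 15 the bar of the 300 domains stands at 9% against 4.53% of shared domains, and on chromosome 1 at 1.33% against 6.34%.

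Evenness over clones was measured as the coefficient of variation (CV) of each clone's share of its own bases. Clone 2 had the largest such share in 184 members and clone 3 in 15, so this measure still carries the difference between the lists. It ran from 2.96% to 97.3% with a median of 34.3%, and 13 members were below 10% and 66 above 50%. The most even were domains 296 (*Mafk*, *Psmg3*, *Tmem184a* and Gm26938), 298, 45 (*Zswim4*, *Ccdc130*, *Mri1* and D8Ertd738e), 83 (*Abhd2*), 228 (*Cd9*), 229 (*Notch2*), 194 (*Loxl3*, *Htra2*, *Aup1*, *Dok1* and *M1ap*) and 207 (*Htra1* and *Plekha1*). *Notch2*, a Notch receptor, held 9955, 13242 and 10049 bases, or 0.0376%, 0.0337% and 0.0387% of each clone's total. Among the 8 least even were domains 274 (*Plxnd1* and *H1foo*), 177 (*Arhgef17* and *Relt*), 19 (*Sept9*), 160 (*Ccdc85c*), 81 (*Ahdc1* and *Wasf2*), 209 (*Sulf2*) and 270 (*Git1*, *Coro6*, *Abhd15*, *Ankrd13b* and *Trp53i13*). In 7 of the 8, clone 2 had the largest share; at *Sulf2*, which edits heparan sulphate, clone 1 had 14920 bases, clone 2 18408 and clone 3 1114.

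Gene lists of pathways and structures were set beside the members. Actin cytoskeleton genes had 6 of 15 starts in members, *Myh9*, *Lmna*, *Ahnak*, *Actb*, *Ahnak2* and *Cald1*, though *Ahnak2* itself had no promoter peak in any clone. Integrins, laminins and focal adhesion genes had 6 of 26, led by *Actn1* in domain 66 with 18977, 28419 and 10479 bases and *Pxn* in domain 77, and including *Actn4*, *Itga3* and *Zyx*. TGF-beta signalling had 4 of 17 (*Ski*, *Smad7*, *Smad3* and *Tgif1*), YAP and TEAD with their targets 3 of 13 (*Tead3*, *Amotl2* and *Tead4*), EGF receptor and Ras signalling 2 of 20 (the phosphatase genes *Dusp1* and *Dusp6*), collagens 2 of 16 (*Col5a1* and *Col16a1*) and Wnt signalling 1 of 20 (*Lrp5*, a Wnt co-receptor). The list of AP-1 with small Maf genes had 8 of 13. No gene of the cell cycle and Rb list was in a member, though 13 of its 15 genes had starts in other shared domains. Over all 20698 genes the 906 in members are the comparison for these counts, and 9790 had a start in another shared domain.

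Marker lists were used to check the cell type, which is not in the labels and which the study's text gives as skin carcinoma. None of 12 keratinocyte markers lay in a member, and 8, *Krt5*, *Krt17*, *Trp63*, *Dsg3*, *Dsp*, *Cdh1*, *Epcam* and *Cldn1*, had no promoter peak in any clone, although the clones were derived from skin carcinomas. Among all genes 4.38% had a start in a member, 42.0% had no promoter peak in any clone and 47.3% had one in all 3, so the lack of such markers in members is near the share of all genes. *Perp*, a desmosome component, had promoter peaks in all clones (7.91, 33.3 and 7.33), *Krt14* in clone 1 alone, at 9.89, and *Krt15* and *Sfn* in clone 2 alone, at 9.80 and 6.32. Of 11 hair follicle progenitor markers none lay in a member, while 6, *Sox9*, *Cdh3*, *Tcf7l1*, *Ptch1*, *Nfatc1* and *Runx1*, had promoter peaks in all clones. Of 12 mesenchymal markers, *Vim* lay in member 280, with 11973, 6885 and 11616 bases. Promoter peaks were present in all clones at 7, among them *Fn1* (29.1, 67.4 and 12.9) and *Twist1* (21.3, 50.2 and 10.2). *Thy1* had none in any clone, *Col3a1* had one in clone 3 alone, and *Col1a1*, *Col1a2* and *Pdgfra* had none in clone 3. The 6 of 11 and 7 of 12 with peaks in all clones are near the 47.3% of all genes. None of 6 melanocyte, 5 endothelial, 6 immune, 4 muscle or 4 neural markers lay in a member. Endothelial and muscle markers had no promoter peak in any clone, and of the melanocyte markers *Pmel* and *Mitf* had them in all.

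The genes given here that the study follows all had their starts outside the members. *Ccnd1*, *Myc* and *Cdk6*, all regulators of the G1 phase, had their starts in shared domains ranked 584, 794 and 1388. The *Ccnd1* domain held 6201, 10267 and 4694 bases, that of *Myc* 6585, 5072 and 6219 and that of *Cdk6* 4832, 3752 and 4129, with promoter peaks in each clone. *Wnt7b* had a promoter peak in clone 2 alone, at 5.69, although domain 9 upstream of it ranked so high. The starts of *Cdkn2a* and *Cdkn2b* had no peak within 1 kb in any clone. The same held for 42.0% of all genes, so this cannot serve as a check of the deletion. Peaks were listed over the last exons of *Cdkn2a* in all 3 clones, with a highest fold enrichment of 15.6, 37.3 and 5.62, and which exons the deleted allele keeps was not examined here. Domain 104 lay 322 kb from *Cdkn2a*.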

How the data were processed

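H3K27-Ac ChIP-seq peak lists of 3 clones were analysed, and the allele-specific counts were not used here. Single-end reads were aligned by the authors (Bowtie2, GRCm38), and MACS2 2.1.1, named in the submitters' processing notes, gave 1 peak list for each clone. Peak names give a filter for allelic mapping bias for clones 1 and 2 and not for the pooled clone 3. Fold enrichment, as deposited, is the ratio between pileup and local background at a summit, and the deposited −log10 p-values and q-values belong to the same summit. The lowest −log10 q was 1.30, 1.33 and 1.35. No read counts are in the lists.

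Domains were built with a joining distance of 12500 bp in Python 3.11.15 (numpy 2.4.6, pandas 2.3.3, pysam 0.24.0, matplotlib 3.10.9), and joining and counting were tested on simulated data. Starts and gene bodies are those of GENCODE M21 and microRNAs and genome sequence those of RefSeq, all on GRCm38. Coordinates count from 1. Promoter fold enrichment is the highest within 1 kb of any start of the gene. Transcription factors were matched to families by symbol. Motifs were searched on both strands, and no sequence of chromosome 18, which holds *Smad7*, is printed. Genes named were those of the 20 highest members, transcription factors in the 60 highest, the 8 most and 8 least even members, 3 domains either side of the threshold, list members and the genes the study follows. Some genes, 1 domain and 1 sequence that these rules pick are not reported here. Further transcription factors in lower members, further members without a start and microRNAs were named after their values were seen. Members and lists were chosen with earlier results of these data known. There is 1 condition, so no test between groups was made, and SD is over clones. Their number limits the precision of each mean.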

Additional observations from a re-analysis of the deposited data

Results flagged for a closer look

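The rule used chromosomes 1 to 19. On the X chromosome, outside it, 2 of the 248 domains present in all 3 clones had a mean at or above that of the lowest member. The first, without a protein-coding start, held 1764, 41963 and 2399 bases in clones 1, 2 and 3, so nearly all of it came from clone 2. The second, with *Tsc22d3*, a glucocorticoid-induced leucine zipper gene, held 21366, 6568 and 4279 bases, most of them in clone 1.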

How the results depend on the processing

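Of 77 values recomputed under alternatives, 59 stayed within 1.5 times the count or within 1 SD over clones and 18 moved. That limit is wide for the list itself. Among the values within it, joining over 5 kb kept 202 of the 300 members and joining over 20 kb kept 233. A −log10 q of at least 5 kept 243, the same number of peaks per clone 233, and ranking by bases weighted by fold enrichment 206. Joining peaks over 5 kb gave 51 transcription factor genes, 54 members without a protein-coding start and 10.2% of all bases in members, and joining over 20 kb gave 11 members without a start and 19.4% of bases. A −log10 q of at least 5 gave 29 members without a start, and the same number of peaks per clone gave 34. Leaving out peaks within 2.5 kb of starts before joining gave 13 domains holding 13 transcription factor genes and 192 domains without a start. Fewer starts inside follow from removing the peaks at starts. It kept 170 members and gave 20.0% of bases, and the cause of these 2 changes was not tested. The promoter share of bases was 39.3% with a window of 2.5 kb, 18.98% with 500 bp and 36.5% with starts of all gene types. Leaving out each clone in turn kept 176 to 277 members, with a promoter share of 22.7% to 27.6%, and 16 to 64 members without a start; the values of 176, 22.7% and 64 are those without clone 2, and the cause was not tested. No paired analysis was possible because there is 1 condition and each clone is its own group. With 3 clones and peak lists alone, weak sites below the threshold of a list cannot be seen, and a clone with a shorter list breaks a domain into pieces.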
